A study of Mus musculus with 56 samples.

Results

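Ribosome footprints of mouse liver labelled 26 months were compared with those labelled 3 months, to ask how the translated messages of the liver differ between the libraries of an old and a young adult age. The 6 libraries were chosen by their tissue, assay and age labels, 3 for each age, out of 56 in the series, and Dio1 was followed as the marker gene of the comparison. The series profiled footprints and total RNA of liver from C57BL/6 mice of 6 ages and of kidney from 3 of those ages. It describes 3 animals at each of these 2 ages, gives no treatment or mutation, and does not state the sex. The 12 other liver footprint libraries, labelled 1, 11, 20 and 32 months, shared the estimate of the spread between libraries and served as a reference for levels. Those given as 11 months by their age field are titled 10m, and the age field is used here. Footprints are the stretches of messenger RNA that ribosomes shield from nuclease digestion of a tissue lysate, so a count reflects both how much of a message is present and how densely it is translated, and these libraries alone do not separate them.

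Total counts were 15698615, 9723557 and 25294950 in libraries 1 to 3 labelled 26 months and 15008692, 26921222 and 16833314 in those labelled 3 months, against 7985755 to 17630204 in the other 12. The tissue label held: Alb, the main plasma protein of hepatocytes, lay between 30523 and 78137 CPM (counts put on a common total for every library) in the 6 libraries, while Kap, a transcript of kidney proximal tubule, was at most 1.15 CPM. All 6 showed the marker pattern of males, with Xist at most at 0.0395 CPM and the Y-linked Ddx3y between 36.6 and 60.8 CPM. The age labels are less certain, because H19, an imprinted transcript of fetal and newborn liver, was highest in the libraries labelled 11 months (9.83 to 22.2 CPM) and at most at 0.414 CPM in those labelled 1 month. In the compared groups H19 was at 0.127, 0.309 and 0.514 CPM at 26 months and 1.93, 1.56 and 0.713 CPM at 3 months. Immunoglobulin genes gave no clear order of these 2 ages. Ighm was at 33.4, 70.1 and 315 CPM at 26 months and 805, 136 and 24.1 CPM at 3 months. Igkc was at 19.1, 30.8 and 130 CPM against 292, 83.2 and 12.7 CPM. Directions with age therefore hold for the libraries as labelled. Library 1 labelled 3 months stood apart. Its median correlation of log2 CPM with the other liver footprint libraries was 0.904, against 0.959 and 0.972 for libraries 2 and 3 of that label and 0.972 to 0.976 for those labelled 26 months. Values without it are given beside the log2 differences of the named genes and most list counts below.

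Dio1 encodes the type 1 iodothyronine deiodinase, a selenocysteine enzyme of liver, kidney and thyroid. It removes iodine from the prohormone thyroxine to give active triiodothyronine, and it clears the inactive reverse form and its sulfated products. In mouse liver the gene is itself induced by thyroid hormone through its nuclear receptor, and its level is widely read as a sign of hepatic thyroid hormone action.

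Promoter windows are shown for the only called gene, Dio1, and for the pair of named genes with the highest log2 differences, Mup17 and Mup18. They place the genes in the genome and show how alike the promoter windows of the pair are. All 3 lie on the minus strand of chromosome 4 (RefSeq, GRCm38.p6, which is mm10), at chr4:107307119-107307418 for Dio1, chr4:61595783-61596082 for Mup17 and chr4:61674045-61674344 for Mup18. Each window holds 250 bases before the annotated start in lower case and the 50 bases from the start on in capitals.
Dio1: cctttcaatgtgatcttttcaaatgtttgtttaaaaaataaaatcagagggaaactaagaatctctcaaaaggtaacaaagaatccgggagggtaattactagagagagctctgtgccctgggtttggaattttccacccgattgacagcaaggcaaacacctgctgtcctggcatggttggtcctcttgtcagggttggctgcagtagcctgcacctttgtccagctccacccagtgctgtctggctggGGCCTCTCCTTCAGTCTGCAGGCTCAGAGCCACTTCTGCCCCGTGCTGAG
Mup17: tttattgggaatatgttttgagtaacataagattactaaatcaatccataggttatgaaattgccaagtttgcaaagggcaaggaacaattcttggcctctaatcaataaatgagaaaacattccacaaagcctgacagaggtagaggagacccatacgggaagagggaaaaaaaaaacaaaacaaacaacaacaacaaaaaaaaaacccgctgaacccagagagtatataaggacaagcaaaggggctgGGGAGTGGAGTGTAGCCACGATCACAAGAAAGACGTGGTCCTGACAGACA
Mup18: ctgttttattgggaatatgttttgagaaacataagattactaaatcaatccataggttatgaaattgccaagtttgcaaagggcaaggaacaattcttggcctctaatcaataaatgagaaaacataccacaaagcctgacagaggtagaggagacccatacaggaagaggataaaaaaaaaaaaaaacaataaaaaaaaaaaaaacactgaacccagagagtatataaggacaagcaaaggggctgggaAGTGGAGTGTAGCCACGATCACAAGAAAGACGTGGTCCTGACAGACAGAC
The Mup17 and Mup18 windows were identical at 282 of 300 aligned columns (94%), with 11 mismatches and 7 gap columns. The letters TATATAA, searched on both strands, occurred once in each of these windows, starting 25 bases before the start in Mup17 and 28 in Mup18, and were in 3.24% of 32851 RefSeq promoter windows. The half-site of nuclear receptors AGGTCA (16.3% of windows), its direct repeat with 4 bases between the copies (0.0152%) and the palindrome TTCNNNGAA of STAT factors (8.3%) had no match on either strand in the 3 windows.

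Dio1 rose in the libraries labelled 26 months relative to those labelled 3 months, and no other of the 13608 genes tested passed an adjusted p of 0.05. Its level was 179, 183 and 156 CPM in libraries 1 to 3 labelled 26 months (173 ± 15, SD, n = 3) and 50, 32.1 and 38.6 CPM in those labelled 3 months (40.3 ± 9.07, SD, n = 3). The lowest library at 26 months was thus far above the highest at 3 months, and the values within each age were close together. The ratio of the mean levels was 4.29 and the fitted difference was 2.24 ± 0.25 on the log2 scale (SE), a 4.74-fold difference, with an adjusted p of 0.00119 (edgeR quasi-likelihood test). Without library 1 labelled 3 months the log2 difference was 2.30 ± 0.30, the adjusted p 0.0124 and the ratio of means 4.88. Over all other settings, the log2 difference of Dio1 stayed between 2.10 and 2.36 and it remained called in each.

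Dio1 was lowest at 3 months among all 6 labelled ages. The 12 libraries of the other ages ranged from 78.7 to 232 CPM, so the 3 libraries labelled 3 months lay below all of them and those labelled 26 months lay inside their range. By age, the levels were 94.9, 179 and 152 CPM at 1 month, 219, 232 and 205 CPM at 11 months, 91.4, 116 and 105 CPM at 20 months and 78.7, 145 and 102 CPM at 32 months. The mean order from low to high was 3, 20, 32, 1, 26 and 11 months. The ranges of the neighbours 20 and 32, 32 and 1, and 1 and 26 months overlapped, while those of 3 and 20 months and of 26 and 11 months did not. Against the mean of the other 4 ages, the log2 difference of Dio1 was −1.96 ± 0.22 for 3 months (adjusted p = 0.00014) and 0.28 ± 0.18 for 26 months (adjusted p = 0.794).

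**Figure D1:**
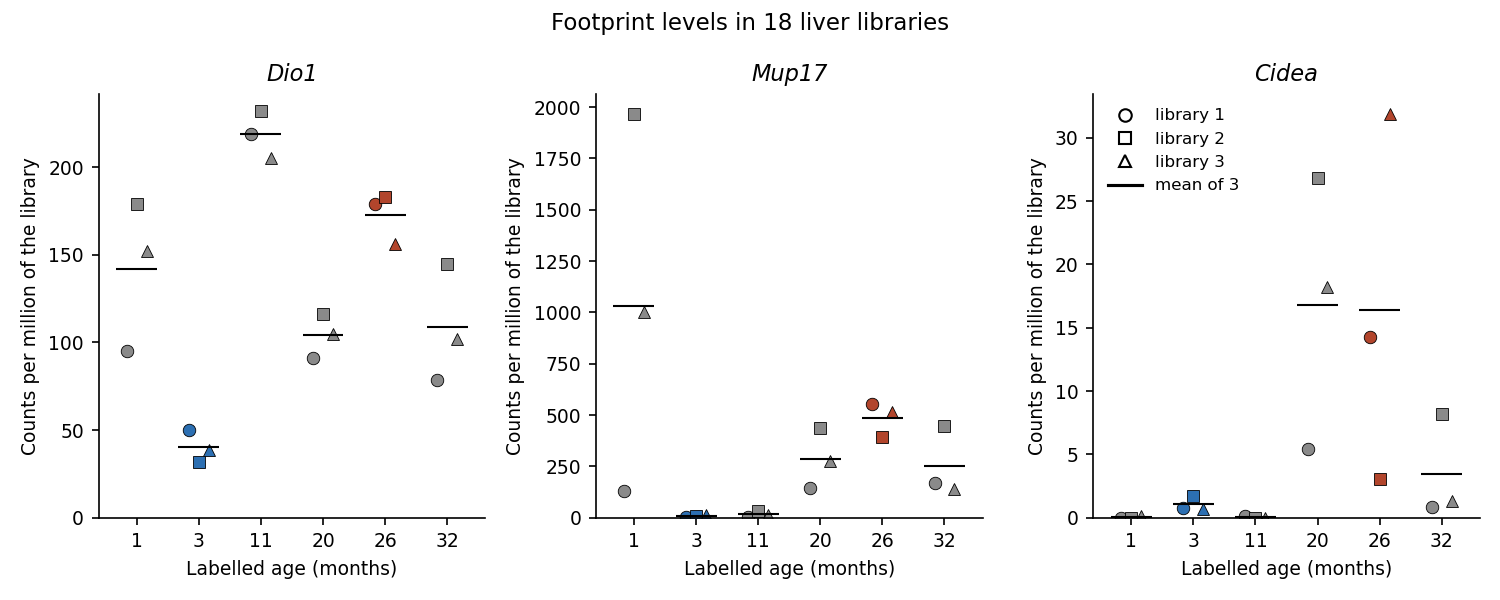
CPM of Dio1, Mup17 and Cidea (vertical axes from 0) in the 18 liver footprint libraries by labelled age; each point is 1 library, the line is the mean of 3, blue marks 3 months and red 26 months. Dio1 lies at 32.1 to 50 CPM at 3 months and at 156 to 183 CPM at 26 months; Mup17 is at 4.73 to 14.7 CPM at 3 months, close to the 6.32 to 32.8 CPM at 11 months; Cidea spreads from 3.09 to 31.9 CPM at 26 months.

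Across all genes tested, called genes were 0.00735% (1 higher) and 0% (0 lower). At an unadjusted p under 0.05 there were 585 higher (4.3%) and 1531 lower (11.3%), and DESeq2 called 75 higher (0.551%) and 425 lower (3.12%). The ranges of the groups in CPM did not overlap for 663 genes higher at 26 months (4.87%) and 865 lower (6.36%), and with TMM-scaled values for 1035 (7.61%) and 853 (6.27%). The median log2 difference over all genes was 0.0045, and scaling by library size alone moved it to −0.13. Without library 1 labelled 3 months, of 13745 genes tested 1 was called higher (0.00728%) and 0 lower (0%), with 281 (2.04%) and 473 (3.44%) at an unadjusted p under 0.05 and 1300 (9.46%) and 1057 (7.69%) with ranges that did not overlap. Without library 3 labelled 3 months, 345 genes were called higher (2.46%) and 1390 lower (9.91%), so the count of calls depended on which 3-month library was kept. The list counts below are to be read against these shares over all genes, since no set test was run.

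**Figure D2:**
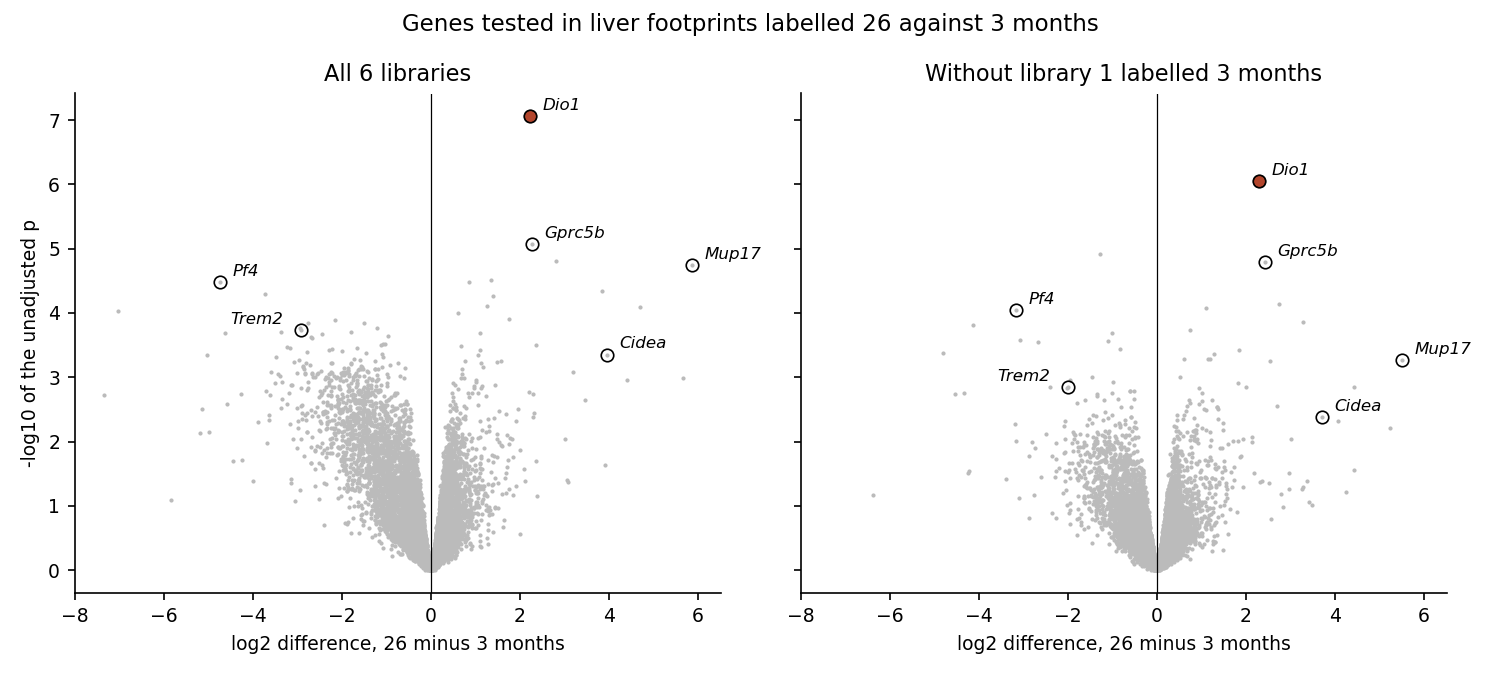
Log2 difference, 26 minus 3 months, against −log10 of the unadjusted p (edgeR) for each gene tested, with all 6 libraries (left, 13608 genes) and without library 1 labelled 3 months (right, 13745 genes); red marks the called gene and circles mark genes named in the text. Dio1 is the only red point in both panels, and the 1531 genes lower at an unadjusted p under 0.05 in the left panel are 473 in the right one.

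In the wider thyroid hormone axis, no other gene passed the test. Of 30 genes listed for uptake, activation, receptors and known liver targets of thyroid hormone, 29 were tested, 1 (Dio1) was called, 3 were higher and 0 lower at an unadjusted p under 0.05, and the median log2 difference was 0.14 (0.12 without library 1 labelled 3 months). The hormone enters hepatocytes through transporters. Slc16a10, a transporter of aromatic amino acids and thyroid hormones, was at 231, 169 and 173 CPM at 26 months and 299, 220 and 267 CPM at 3 months (log2 −0.32 ± 0.29, adjusted p = 0.648, and −0.33 without library 1 labelled 3 months), with overlapping ranges. Slco1a1, an organic anion carrier of mouse liver, was at 379, 293 and 200 CPM at 26 months and at 2.73, 26.2 and 426 CPM at 3 months. The 3-month libraries thus spanned more than the whole range of the older ones, and the difference of 0.89 ± 1.01 did not pass (adjusted p = 0.732, and 0.32 without library 1 labelled 3 months).

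The receptor genes were not called either. Thrb, the main thyroid hormone receptor of liver, was at 65.5, 66.1 and 62.6 CPM at 26 months and 53.9, 63.1 and 69.0 CPM at 3 months (0.16 ± 0.22, adjusted p = 0.779, and −0.013 without library 1 labelled 3 months). Its partner receptor Rxra differed by 0.15 ± 0.15 (adjusted p = 0.697, and 0.087 without that library). Among target genes, Gpd2, the mitochondrial glycerol phosphate dehydrogenase, was at 44.6, 55.2 and 72.4 CPM against 35.9, 22.9 and 44.6 CPM (0.83 ± 0.22, adjusted p = 0.103). The Gpd2 ranges meet at 44.6 CPM as rounded but did not overlap before rounding. Me1, malic enzyme, was at 110, 89.9 and 303 CPM against 59.6, 68.6 and 147 CPM (0.89 ± 0.41, adjusted p = 0.306), with overlap. Thrsp, a lipogenic protein named for its thyroid response, was at 553, 280 and 887 CPM against 180, 311 and 458 CPM (0.89 ± 0.51, adjusted p = 0.423). Library 3 at 26 months was the highest for all 3 of these target genes. Without library 1 labelled 3 months the log2 differences of Gpd2, Me1 and Thrsp were 0.74, 0.59 and 0.56. Cyp7a1, the rate-limiting enzyme of bile acid synthesis, was at 340, 355 and 316 CPM against 142, 240 and 376 CPM (0.47 ± 0.49, adjusted p = 0.704, and 0.13 without that library), with library 3 at 3 months above all others. The remaining 20 members had log2 differences from −0.32 to 1.16 and none was called.

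Dio1 is also 1 of the selenoproteins, whose synthesis recodes a stop codon as selenocysteine. Of 20 members tested, Dio1 was the only call, 2 were higher and 1 lower at an unadjusted p under 0.05, and the median was 0.19 (0.043 without library 1 labelled 3 months). The 9 genes of selenocysteine synthesis and insertion had 0 members at an unadjusted p under 0.05 in either direction, with log2 differences from −0.076 to 0.41.

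Genes of the major urinary proteins had the highest log2 differences among the named genes, and none passed the adjusted threshold. These proteins are small lipocalins that mouse liver secretes for excretion in urine, where they carry pheromones, and males make more of them under the pulsatile pattern of growth hormone. Mup17 was at 553, 394 and 514 CPM at 26 months and 4.73, 6.50 and 14.7 CPM at 3 months (log2 5.87 ± 0.97, adjusted p = 0.0617), and Mup18 at 31.5, 29.4 and 41.6 CPM against 0.933, 1.45 and 1.78 CPM (4.70 ± 0.88, adjusted p = 0.0925). No library of one age reached the range of the other for either gene. Without library 1 labelled 3 months the differences were 5.52 (adjusted p = 0.353) and 4.43 (adjusted p = 0.595). The genes of this cluster are closely related copies. The windows above compare only the promoter region of the pair, and coding sequences were not compared. How the reads were divided among the copies is therefore uncertain.

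Other members of the cluster had the same order of the groups at lower contrast. Mup9 was at 13.6, 15.2 and 21.6 CPM against 0.333, 1.56 and 4.40 CPM (3.03 ± 1.02, adjusted p = 0.153) and Mup14 at 242, 145 and 223 CPM against 8.60, 43.4 and 71.3 CPM (2.32 ± 0.68, adjusted p = 0.116). Mup11, chosen after the values were seen, was at 972, 873 and 606 CPM against 2.93, 41.9 and 409 CPM (2.38 ± 1.22, adjusted p = 0.367), and Mup3 at 4589, 4284 and 3684 CPM against 467, 1527 and 4733 CPM (0.89 ± 0.58, adjusted p = 0.494). Without library 1 labelled 3 months the log2 differences of Mup9, Mup14, Mup11 and Mup3 were 2.53, 1.82, 1.81 and 0.39. In all 4, library 1 was the lowest and library 3 the highest of the 3-month libraries, and for Mup3 library 3 exceeded every 26-month library. The low Mup17 level was not found at 3 months alone: it was 6.32, 32.8 and 13.6 CPM at 11 months and from 130 to 1968 CPM at 1 month.

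The medians of male-biased and female-biased liver genes lay on opposite sides of 0. In the summed level of the male-biased list, the 3-month libraries were far from each other. Of 26 male-biased genes tested, 6 were higher and 0 lower at an unadjusted p under 0.05, and the median log2 difference was 0.89 (0.35 without library 1 labelled 3 months). Elovl3, a fatty acid elongase of this list, was at 61.2, 47.7 and 89.0 CPM against 7.73, 10.2 and 38.5 CPM (1.82 ± 0.61, adjusted p = 0.152, and 1.40 without that library), without overlap. The summed level of the list was 21584, 18334 and 14286 CPM at 26 months and 3756, 7057 and 20514 CPM at 3 months, so library 3 of the younger label lay inside the older range. Of 19 female-biased genes tested, 0 were higher and 10 lower at an unadjusted p under 0.05, with a median of −1.26 (−1.37 without library 1 labelled 3 months). Their summed level was 184, 317 and 527 CPM at 26 months and 367, 520 and 523 CPM at 3 months, with overlap. No gene of either list was called.

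Of 28 lipogenesis genes tested, which include proteins of lipid droplets and enzymes of triglyceride synthesis, none was called, 8 were higher and 0 lower at an unadjusted p under 0.05, and the median was 0.37 (0.27 without library 1 labelled 3 months). Cidea, a droplet protein that promotes droplet fusion, was at 14.3, 3.09 and 31.9 CPM against 0.800, 1.75 and 0.713 CPM (3.96 ± 0.90, adjusted p = 0.101), and its relative Cidec was at 32.7, 15.3 and 64.2 CPM against 9.46, 13.7 and 3.50 CPM (2.20 ± 0.58, adjusted p = 0.103). For both, library 2 at 26 months was the lowest of its age and came close to the highest 3-month library. G0s2, an inhibitor of adipose triglyceride lipase, was at 48.3, 43.9 and 101 CPM against 18.7, 18.6 and 25.7 CPM (1.69 ± 0.50, adjusted p = 0.118). Mogat1, a monoacylglycerol acyltransferase chosen after the values were seen, was at 2.93, 1.85 and 4.78 CPM against 0.533, 0.780 and 0.119 CPM (2.81 ± 0.47, adjusted p = 0.0617). The 26-month ranges of these 4 genes did not overlap those at 3 months, and without library 1 labelled 3 months the log2 differences of Cidea, Cidec, G0s2 and Mogat1 were 3.72, 2.15, 1.52 and 2.76. Plin4 and Plin2, perilipins of the droplet surface, had CPM ranges that overlapped with all libraries kept. The overlap of Plin2 came from library 1 labelled 3 months alone. Plin4 was at 7.84, 6.58 and 9.25 CPM against 24.5, 8.21 and 4.10 CPM (−0.39 ± 0.77, adjusted p = 0.861, and 0.40 without that library), and Plin2 at 260, 268 and 402 CPM against 323, 214 and 174 CPM (0.54 ± 0.21, adjusted p = 0.218, and 0.69 without that library), both with overlap and both chosen after the values were seen. Fasn, fatty acid synthase, was at 610, 872 and 2369 CPM against 1213, 843 and 1221 CPM (0.31 ± 0.61, adjusted p = 0.861, and 0.27 without that library), with overlap and with library 3 at 26 months alone above the rest.

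Of these 6 droplet and triglyceride genes, Cidea, Cidec and Mogat1 differed between the 26-month libraries and the mean of the other 4 ages. Against that mean, Cidea rose by 4.73 ± 0.74 on the log2 scale (adjusted p = 0.0117), Cidec by 2.05 ± 0.41 (0.0338) and Mogat1 by 1.64 ± 0.33 (0.0289), while G0s2 differed by −0.13 ± 0.38 (0.962) and Plin4 by 0.30 ± 0.62 (0.946), and Plin2 by −0.24 (0.814). At 3 months the differences of Cidea, Cidec and Mogat1 did not pass (adjusted p = 0.632, 0.854 and 0.0616), and G0s2 fell by 1.82 on the log2 scale (adjusted p = 0.0089), which did not pass without library 1 of that label (−1.65, adjusted p = 0.121). The libraries labelled 20 months reached like levels, with 5.45, 26.8 and 18.2 CPM of Cidea and 44.9, 61.3 and 55.7 CPM of Cidec. Mogat1 reached 5.38 CPM in the 12 libraries of the other ages.

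Gprc5b, an orphan receptor of the G protein-coupled class, had the second smallest p of all genes. It was at 6.43, 6.38 and 12.6 CPM against 2.67, 1.86 and 1.31 CPM (2.27 ± 0.36, adjusted p = 0.0585, and 2.43 with 0.0753 without library 1 labelled 3 months), without overlap. Gpc1, a glypican of the cell surface, was at 58.9, 37.8 and 52.7 CPM against 15.3, 25.5 and 21.4 CPM (1.36 ± 0.24, adjusted p = 0.0651), and Clstn3, a calsyntenin, at 26.9, 19.7 and 39.8 CPM against 11.5, 13.5 and 10.3 CPM (1.41 ± 0.26, adjusted p = 0.0741). The last 2 were chosen after the values were seen, and differed by 1.12 and 1.30 without library 1 labelled 3 months. Gprc5b, Gpc1, Clstn3 and Mogat1 were called with Dio1 when library 2 labelled 26 months was left out. Against the mean of the other 4 ages at 26 months, Gprc5b rose by 2.24 ± 0.26, Gpc1 by 1.57 ± 0.17 and Clstn3 by 1.20 ± 0.19 (adjusted p = 0.000464, 0.000464 and 0.0128). In the 12 libraries of those ages, Gprc5b reached 9.89 CPM, Gpc1 47.3 CPM and Clstn3 40.9 CPM, so their ranges overlapped those at 26 months.

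Lists of fuel metabolism had positive median differences and no call. Of 31 genes of fatty acid oxidation, 11 were higher and 0 lower at an unadjusted p under 0.05 and the median was 0.38, against 4 and 0 with 0.18 without library 1 labelled 3 months. Vnn1, a pantetheinase under control of the fatty acid receptor PPARα and chosen after the values were seen, was at 69.3, 59.0 and 81.8 CPM against 27.1, 30.9 and 24.0 CPM (1.48 ± 0.35, adjusted p = 0.101, and 1.38 without that library). The ranges of Vnn1 did not overlap. In bile acid synthesis and transport, 4 of 22 were higher and 1 lower at an unadjusted p under 0.05 (median 0.32, and 0.054 without library 1 labelled 3 months), with Scp2, a peroxisomal sterol carrier, at 2033, 2161 and 2210 CPM against 1087, 1303 and 1712 CPM (0.72 ± 0.22, adjusted p = 0.123, and 0.50 without that library).

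**Figure D3:**
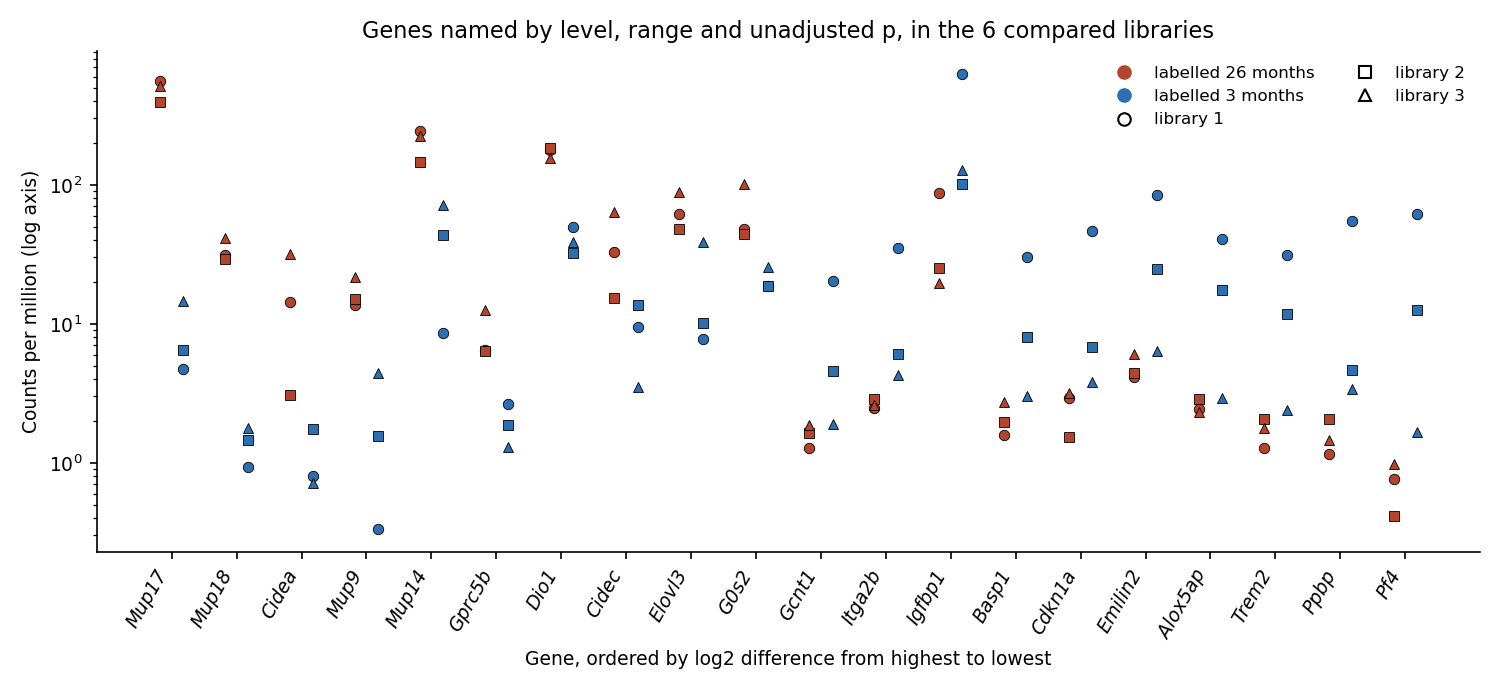
CPM (log axis) in the 6 compared libraries of the 10 genes with the highest and the 10 with the lowest log2 difference among those at an unadjusted p under 0.05 that average 5 CPM or more and have separate group ranges; red is 26 months, blue 3 months, and symbols mark libraries 1 to 3. In the 10 lowest genes library 1 labelled 3 months is the top point, from 20.3 CPM for Gcnt1 to 631 CPM for Igfbp1, and for Dio1 the 3 blue points lie together between 32.1 and 50 CPM.

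The 10 lowest log2 differences that the naming rule takes included 3 genes known from platelets, and none passed the adjusted threshold. No platelet list was tested. Pf4, a chemokine of platelet granules, was at 0.764, 0.411 and 0.988 CPM at 26 months and 61.2, 12.6 and 1.66 CPM at 3 months (−4.73 ± 0.83, adjusted p = 0.0651, and −3.15 without library 1). Ppbp, another platelet chemokine, was at 1.15, 2.06 and 1.46 CPM against 55.0, 4.68 and 3.39 CPM (−3.47 ± 0.80, adjusted p = 0.101, and −1.38 without library 1). Itga2b, the platelet integrin chain, was at 2.48, 2.88 and 2.61 CPM against 34.9, 6.09 and 4.28 CPM (−2.23 ± 0.55, adjusted p = 0.101, and −0.94 without library 1). The ranges did not overlap in these 3 genes, with library 1 labelled 3 months far above all others, yet library 3 at 3 months was close to the older libraries. Tubb1, the platelet tubulin chosen after the values were seen, was at 0.318, 0.206 and 0.316 CPM against 10.3, 2.15 and 1.66 CPM (−3.72 ± 0.69, adjusted p = 0.0741, and −2.67 without library 1). In the 12 libraries of other ages, Pf4 was at most 2.35 CPM.

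Trem2, a lipid-sensing receptor of macrophages, was at 1.27, 2.06 and 1.78 CPM against 31.4, 11.7 and 2.38 CPM (−2.91 ± 0.61, adjusted p = 0.101, and −2.00 without library 1 labelled 3 months). Alox5ap, which presents arachidonate for leukotriene synthesis in myeloid cells, was at 2.42, 2.88 and 2.33 CPM against 40.4, 17.4 and 2.91 CPM (−2.75 ± 0.56, adjusted p = 0.101, and −1.94 without library 1). In both, library 1 was the highest at 3 months and library 3 lay just above the older range. Emilin2, a matrix glycoprotein, was at 4.14, 4.42 and 6.09 CPM against 83.9, 24.6 and 6.42 CPM (−2.69 ± 0.57, adjusted p = 0.101, and −1.60 without library 1). Basp1, a membrane-bound signalling protein, was at 1.59, 1.95 and 2.73 CPM against 30.2, 8.06 and 3.03 CPM (−2.44 ± 0.52, adjusted p = 0.101, and −1.35 without library 1). Gcnt1, a glycosyltransferase of O-linked glycans, was at 1.27, 1.65 and 1.86 CPM against 20.3, 4.61 and 1.90 CPM (−2.21 ± 0.58, adjusted p = 0.103, and −0.99 without library 1). In these 3 genes too, library 3 at 3 months lay just above the older range. Cdkn1a, the cyclin-dependent kinase inhibitor p21, was at 2.93, 1.54 and 3.20 CPM against 46.6, 6.76 and 3.80 CPM (−2.56 ± 0.73, adjusted p = 0.114, and −0.97 without library 1). Igfbp1, a hepatic binding protein of insulin-like growth factors, was at 86.9, 25.3 and 19.5 CPM against 631, 102 and 127 CPM (−2.40 ± 1.09, adjusted p = 0.303, and −1.33 without library 1).

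Among the cell type lists, the summed macrophage, neutrophil, B cell and T cell markers were highest of all 18 libraries in library 1 labelled 3 months, as were those of sinusoidal endothelium, stellate cells and bile duct. Hepatocyte markers summed to 89125 CPM there, against 124123 and 142377 CPM in libraries 2 and 3 of that label, and erythroid markers to 395 CPM, against 427 and 526 CPM. Of 24 macrophage and Kupffer cell markers, 1 was higher and 21 lower at an unadjusted p under 0.05, with a median of −1.50, and without library 1 labelled 3 months 1 and 8, with −0.66. Their summed level was 8006, 3092 and 1075 CPM in libraries 1 to 3 labelled 3 months, 963, 1158 and 1696 CPM at 26 months and 596 to 1629 CPM in the 12 other libraries, so library 3 at 3 months lay inside the older range. Clec4f, a lectin of Kupffer cells, was at 105, 117 and 160 CPM against 1380, 308 and 103 CPM (−1.96 ± 0.53, adjusted p = 0.104, and −0.64 without library 1), and Mpeg1, a pore-forming protein of macrophages, at 175, 199 and 274 CPM against 1042, 495 and 120 CPM (−1.12 ± 0.47, adjusted p = 0.246, and −0.45 without library 1), both with overlap. Cd163, the haemoglobin scavenger receptor chosen after the values were seen, ran the other way at 20.0, 39.8 and 30.1 CPM against 18.1, 8.73 and 17.0 CPM (1.15 ± 0.37, adjusted p = 0.138, and 1.20 without library 1). In bulk tissue, fewer cells of a type and less RNA per cell cannot be told apart.

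Neutrophil markers summed to 173, 14.7 and 3.09 CPM at 3 months and to 4.20, 5.45 and 6.72 CPM at 26 months. The 4 tested of 10 listed were all lower at an unadjusted p under 0.05 (median −3.41, and −0.68 without library 1 labelled 3 months, where 0 were). S100a9, a calcium-binding protein of neutrophils, was at 0.382, 1.23 and 1.03 CPM against 37.3, 2.93 and 0.297 CPM, and Csf3r, the receptor of granulocyte colony-stimulating factor, at 2.36, 2.26 and 3.28 CPM against 20.2, 5.50 and 2.08 CPM, both with overlap. Their log2 differences were −3.63 ± 1.11 and −1.54 ± 0.51 (adjusted p = 0.124 and 0.147), and −0.88 and −0.48 without that library. B and plasma cell markers had 5 of 17 lower (median −1.20, and −0.40 without that library) and T and NK cell markers 3 of 15 (−0.81 and −0.084). T and NK cell markers summed to 123, 37.3 and 4.87 CPM at 3 months and 7.77, 7.1 and 38 CPM at 26 months. The 12 other libraries had 4.04 to 12.3 CPM. B and plasma cell markers summed to 1497, 531 and 206 CPM against 237, 297 and 701 CPM, with 156 to 592 CPM in the 12 others. Library 3 at 26 months was thus above those 12 in both lists. Ighm, the immunoglobulin mu chain, was at 33.4, 70.1 and 315 CPM against 805, 136 and 24.1 CPM, and its log2 difference of −0.95 ± 0.89 (adjusted p = 0.66) was 0.82 without library 1 labelled 3 months. Cd4, a T cell and monocyte receptor, was at 1.15, 0.720 and 2.29 CPM against 59.8, 7.43 and 0.356 CPM (−3.62 ± 0.97, adjusted p = 0.103, and −1.36 without that library). No macrophage, neutrophil, B or T cell marker was at 0 in all 6 libraries. Of 28 cell cycle genes, 0 were higher and 18 lower (median −1.35, and −0.50 with 7 lower without that library), and of 30 interferon response genes 12 were lower (−0.96, and −0.35 with 0). The part of these cell type levels in the lower genes was not tested.

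Over all 1531 genes lower at an unadjusted p under 0.05, library 1 was the highest of the 3-month libraries in 1487 (97.1%), library 2 in 31 and library 3 in 13. Of the 585 genes higher at 26 months, library 1 was the lowest in 258 (44.1%), library 2 in 85 and library 3 in 242 (41.4%). These same libraries entered the choice of the genes, and the shares over all genes tested were not counted. The counts use CPM without TMM scaling. The TMM factor was 1.30 for library 1, 1.09 for library 2 and 0.954 for library 3, so scaling would lower library 1 relative to the others. Dio1 had its lowest value in library 2. The median SD of log2 levels between libraries was 0.31 at 3 months (0.20 without library 1) and 0.19 at 26 months, against 0.20 to 0.27 at the other ages.

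**Figure D4:**
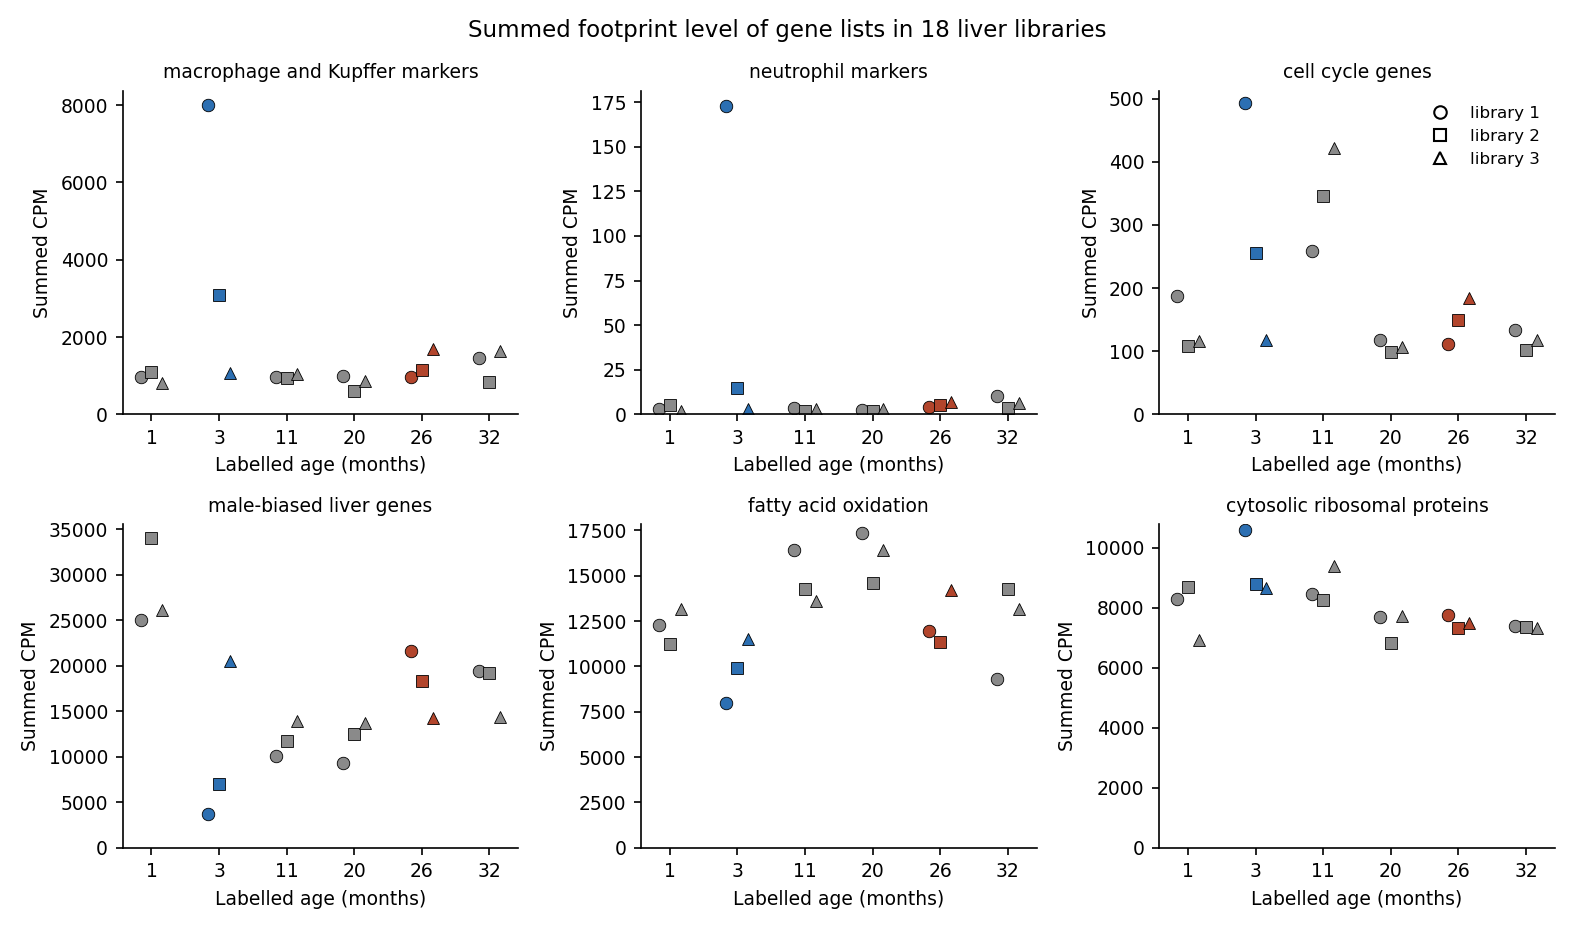
Summed CPM of 6 gene lists (vertical axes from 0) in the 18 liver footprint libraries by labelled age; each point is 1 library, blue marks 3 months and red 26 months. Among libraries labelled 3 months, macrophage markers range from 1075 CPM in library 3 to 8006 CPM in library 1 and male-biased genes from 3756 CPM in library 1 to 20514 CPM in library 3, while ribosomal protein genes lie at 8663 to 10610 CPM at 3 months and 7344 to 7777 CPM at 26 months.

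Genes of the translation machinery and of mitochondria had small median differences and no call. Of 75 cytosolic ribosomal protein genes, 0 were higher and 6 lower at an unadjusted p under 0.05, with a median of −0.18 with and without library 1 labelled 3 months. The CPM ranges did not overlap, lower at 26 months, in 59 of the 75, but in 22 with TMM-scaled values. Over all genes tested these shares were 6.36% in CPM and 6.27% with TMM-scaled values. Rpl4 was at 319, 309 and 276 CPM against 454, 324 and 349 CPM (−0.18 ± 0.14, adjusted p = 0.601, and −0.14 without that library), and Rplp1, of the ribosomal stalk, at 331, 286 and 282 CPM against 404, 369 and 342 CPM (−0.18 ± 0.18, adjusted p = 0.678, and −0.22 without it). Neither gene's CPM ranges overlapped. Mitochondrial ribosomal protein genes had 15 of 76 higher (median 0.22, and 0.11 with 2 higher without library 1 labelled 3 months), and genes of oxidative phosphorylation 1 of 69 (0.21 and 0.018). Over all genes tested 4.3% were higher at an unadjusted p under 0.05. Ranges did not overlap, higher at 26 months, in 17 of the 76 in CPM and in 21 with TMM-scaled values. Those shares over all genes tested were 4.87% and 7.61%. Mrpl12 was at 86.1, 77.1 and 85.7 CPM against 59.3, 74.4 and 80.1 CPM (0.32 ± 0.17, adjusted p = 0.397, and 0.12 without that library). All 26 chaperones of the endoplasmic reticulum had a positive log2 difference, from 0.061 to 0.54, and none passed an unadjusted p of 0.05. A mostly positive sign was not particular to them. It was found in 67 of 69 genes of oxidative phosphorylation, 30 of 31 proteasome subunits and 71 of 76 mitochondrial ribosomal protein genes. Among the 75 cytosolic ribosomal protein genes 3 were positive. The share of positive differences over all genes tested was not counted. The chaperone and disulfide isomerase P4hb was at 1709, 1752 and 1493 CPM against 1252, 1493 and 1455 CPM (0.35 ± 0.20, adjusted p = 0.424, and 0.19 without that library).

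Erythroid markers, which mark red cells and their precursors, were not called. Of 7 erythroid markers tested, 0 were higher and 6 lower at an unadjusted p under 0.05 (median −0.80), and 4 without library 1 labelled 3 months (−0.67). Hbb-bs, a beta globin, was at 107, 126 and 123 CPM against 151, 199 and 225 CPM (−0.61 ± 0.27, adjusted p = 0.289, and −0.83 without that library), without overlap. Its near-identical partner gene makes the split of reads uncertain. Alas2, the erythroid enzyme that starts haem synthesis, ran the other way at 142, 125 and 163 CPM against 43.7, 108 and 138 CPM (0.61 ± 0.33, adjusted p = 0.399, and 0.22 without that library), with overlap. Lysosomal protein genes had 9 of 25 lower (median −0.28, and −0.18 with 3 lower without that library), among them Psap, prosaposin, at 579, 629 and 781 CPM against 1501, 1000 and 681 CPM (−0.51 ± 0.18, adjusted p = 0.162, and −0.32 without that library). Stellate cell and matrix genes had 8 of 28 lower (−0.49, and −0.19 with 2), and drug-metabolizing enzymes 2 of 41 higher and 5 lower (−0.050 and −0.26). Over all genes tested, 4.3% were higher and 11.3% lower at an unadjusted p under 0.05. Hepatocyte markers had 0 of 15 in either direction (0.15, and −0.012 without that library).

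**Figure D5:**
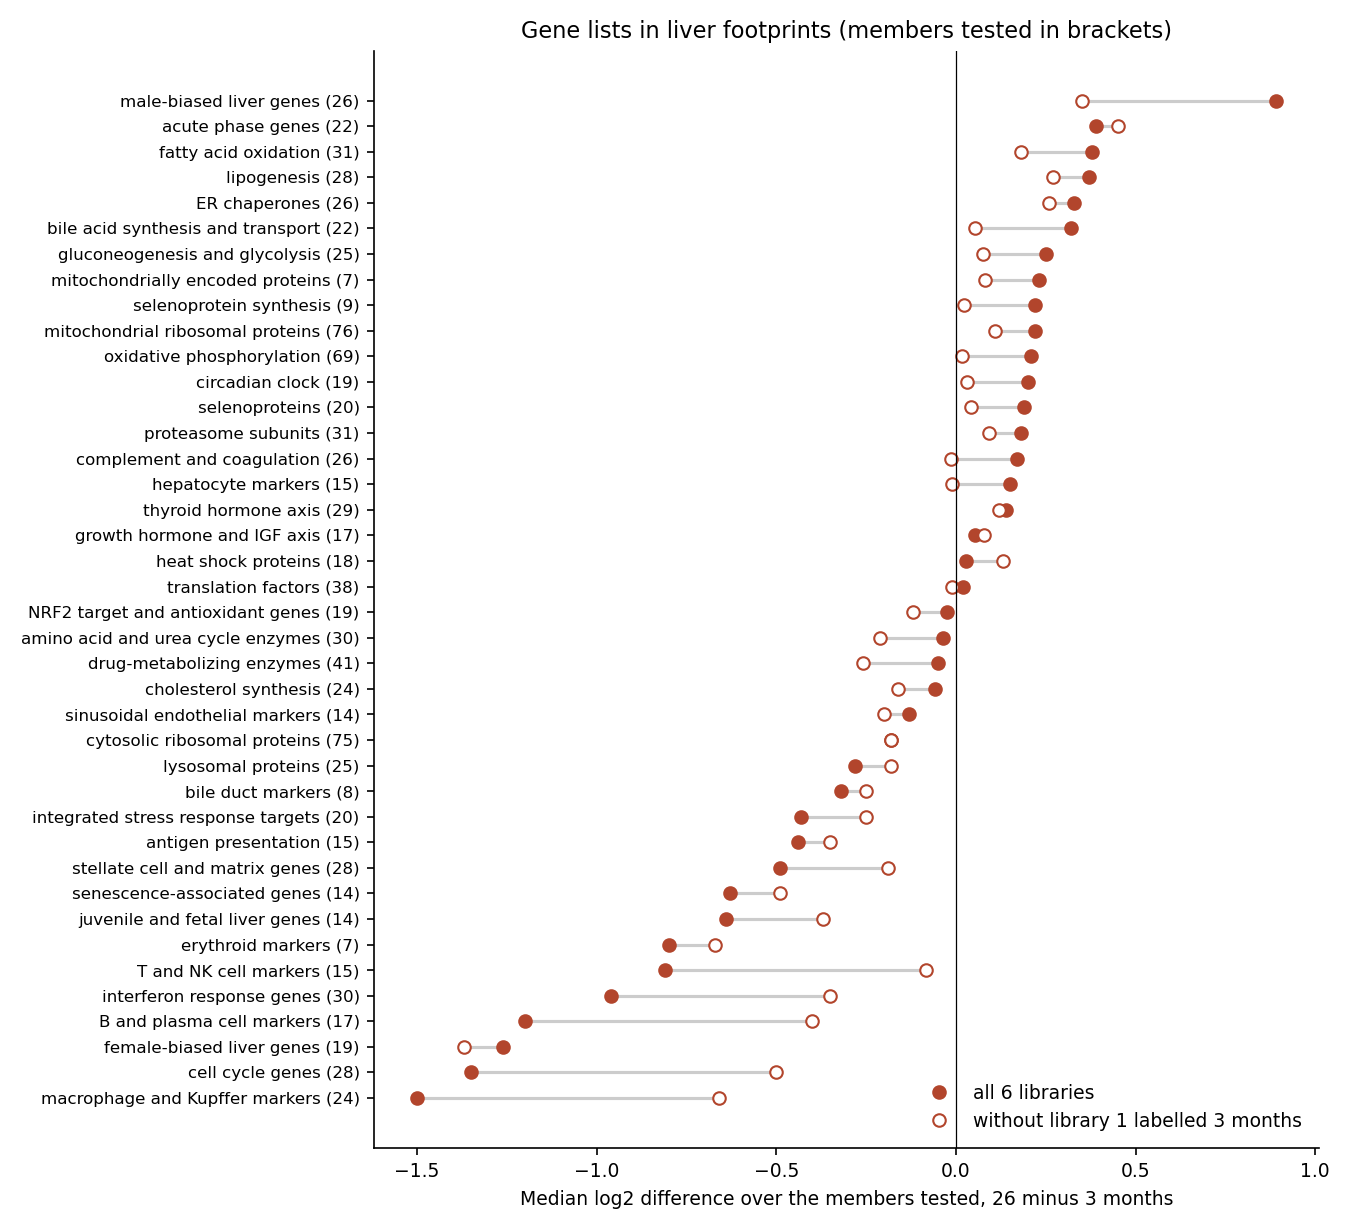
Median log2 difference, 26 minus 3 months, of each gene list with at least 7 members tested, with all 6 libraries (filled) and without library 1 labelled 3 months (open); the number of members tested is in brackets. Macrophage markers move from −1.50 to −0.66 and male-biased genes from 0.89 to 0.35, while the thyroid hormone axis stays at 0.14 and 0.12 and cytosolic ribosomal proteins at −0.18.

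The acute phase genes were uneven at 26 months. Saa1, a serum amyloid protein that liver secretes in inflammation, was at 2995, 3951 and 61.0 CPM at 26 months and 510, 451 and 32.3 CPM at 3 months, and Saa2 at 2391, 3014 and 26.4 CPM against 225, 197 and 12.2 CPM. In both, library 3 of each age was far below the other two. Neither difference passed (3.08 ± 1.39 with an adjusted p of 0.302, and 3.91 ± 1.55 with 0.228), and without library 1 labelled 3 months they were 3.42 and 4.26. Against the mean of the other 4 ages in the same edgeR fit, both were called higher at 26 months. Saa1 rose by 5.51 ± 0.89 (adjusted p = 0.0143) and Saa2 by 6.47 ± 0.98 (0.0117). Library 3 at 26 months lay inside the ranges of those 12 libraries, 7.05 to 849 CPM for Saa1 and 3.01 to 428 CPM for Saa2. These paralogs are alike enough that reads may be shared, and they were chosen after the values were seen. Hp, haptoglobin, was at 6277, 9694 and 2386 CPM against 6890, 3895 and 1915 CPM (0.76 ± 0.42, adjusted p = 0.41, and 1.15 without that library). The list had 4 of 22 higher and 0 lower at an unadjusted p under 0.05 (median 0.39, and 0.45 with 2 higher without library 1 labelled 3 months).

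The same fit gave each age its own contrast with the mean of the 4 ages outside the comparison. The libraries labelled 26 months had 66 genes called higher (0.485%) and 5 lower (0.0367%). Those labelled 3 months had 1836 higher (13.5%) and 742 lower (5.45%), and without library 1 of that label 415 higher (3.02%) and 83 lower (0.604%). Leaving out library 1 or 2 labelled 26 months left 12 and 21 calls for that age, and leaving out library 3 labelled 3 months gave 3989 for the other. Trem2 and Pf4 rose at 3 months by 4.61 ± 0.43 and 4.77 ± 0.51 on the log2 scale (adjusted p = 0.000063 and 0.00014), and by 3.70 and 3.19 without library 1 of that label (0.000233 and 0.00145), while their 26-month differences of 1.70 ± 0.53 and 0.040 ± 0.68 did not pass (0.282 and 0.994). Mup17 fell by 4.58 and Mup18 fell by 3.49 on the log2 scale at 3 months (adjusted p = 0.00188 and 0.00671, and 0.0498 and 0.0995 without library 1 of that label). Both contrasts share the other 12 libraries, so they are given side by side only.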

How the data were processed

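Groups follow the age, tissue and assay that the labels give each footprint library. What the authors deposited are raw counts per gene with no normalization, in a joint table whose 18 liver footprint columns equalled the separate tables; its 38 other columns of per-sample values were not used. Per the submitters' processing notes, the tools include cutadapt 1.14 and STAR 2.5.3 and the build is mm10, while the counting tool and annotation are not given in the sources used here. A symbol was found for 49998 of 50222 gene identifiers, and 136 shared one.

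All 18 libraries entered 1 model in edgeR 4.0.16 (R 4.3.3), after filterByExpr with a minimum count of 10 and TMM scaling. Each gene was tested by the robust quasi-likelihood test, two-sided, and p-values were adjusted by Benjamini-Hochberg over all genes tested, with 0.05 as the threshold. The fits were tested on simulated data. SE was obtained from the F statistic, as the size of the log2 difference over the root of F. CPM levels use library totals alone. With 3 libraries a group, an exact permutation test could not go below 0.1. The series states 3 animals per age but the labels tie no library to an animal, so p-values measure the spread between libraries. Within the 2 ages, no pair of libraries was a duplicate (chi-square per degree of freedom 21 to 198); other pairs were not checked.

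Alternatives were DESeq2 1.42.0, other scalings and filters, fewer libraries and a replicate block. Named genes were Dio1, the 10 highest and 10 lowest log2 differences among genes at an unadjusted p under 0.05 that averaged 5 CPM or more and had separate group ranges (since under 20 genes were called), and per list the called members or up to 2 of highest level. Predicted models and antigen receptor segments were not named, and other named genes are marked as chosen after their values were seen. Some genes that the rule takes are not reported here. The members, the marker and the 43 gene lists were chosen with earlier results of these data known. Promoter windows are from RefSeq (GRCm38.p6).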

Additional observations from a re-analysis of the deposited data

How the results depend on the processing

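Dio1 was called under every alternative. The number of called genes was 500 with DESeq2 (75 higher, 425 lower), 33 without a filter on low counts (13 and 20), 2 with library size only (Dio1 and Mup17), 2 with only the 6 libraries (Dio1 and Mup18) and 2 when library 1 labelled 3 months was also left out there, a setting chosen after seeing the data. Leaving out each library in turn gave 1 to 1735 calls, the highest without library 3 labelled 3 months. Against the mean of the other 4 ages, 26 months had 160 calls with DESeq2 and 12 to 99 leaving out libraries, and 3 months had 498 to 3989; its split was 2683 higher and 266 lower with library size only. Members of the gene lists called were 62 with DESeq2, 3 without a filter, 2 with library size only, 2 with only the 6 libraries, 2 without library 1 labelled 3 months there, and 1 to 177 leaving out libraries. Uncalled log2 differences changed sign for Thrb (−0.037 with only the compared libraries and without library 1 labelled 3 months, and −0.013 to 0.35 leaving out libraries), Alb (−0.01 with library size only, −0.32 with only the compared libraries, and −0.30 to 0.48), Ighm (0.80, and −2.29 to 0.82) and Fasn (−0.40 to 0.61); the cause was not tested. Same-numbered libraries of the 2 ages had correlations of deviations of −0.268, −0.121 and −0.305. Deviations of 3 libraries from their own mean are tied to each other, so these values cannot exclude pairing by number. The replicate block called 3 genes (Dio1, Mup17 and Mup18), also 3 among the lists. Protein-coding genes only, also chosen after seeing the data, called Dio1 alone. Counts under about 1 CPM limit the lowest levels.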
